A study of Mus musculus with 36 samples.

Results

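The wound-induced keratins Krt6a, Krt6b, Krt16 and Krt17 are 4 named genes, followed here through injury, healing and re-injury of mouse tail skin. All 4 were in both count tables of the series, among 20181 genes of the Lrig1 table and 22587 of the Lgr5 table, or 23903 genes in either, and all 4 passed the filter on low counts in both. The cells were tdTomato+ epidermal cells sorted from young adult mice of both sexes that carried Lrig1-EGFP-ires-CreERT2 or Lgr5-EGFP-ires-CreERT2 with Rosa26-fl/STOP/fl-tdTomato. All mice received 1 topical dose of 4-hydroxytamoxifen on the tail, a week before the first full-thickness punch wound. The Lrig1 promoter marks cells of the upper hair follicle (HF) and junctional zone and the Lgr5 promoter cells of the lower HF, so each library holds the progeny of those cells (Lrig1 GL and Lgr5 GL cells, for genetically labelled), taken in small pools of cells from a zone with both the wound bed and HFs farther away. The label 0W stands for skin not yet injured and 9W for skin 1 week after a second wound, which was made at 8W. The labels 1W, 2W, 4W and 8W count weeks from the first wound. Each of these 6 groups had 3 libraries, which gave 36 in all. The study counts its replicates of this time course in mice, but the labels do not tie libraries to animals, so p-values measure the spread between these libraries.

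Keratins form the intermediate filaments of epithelial cells as pairs of a type II and a type I chain. Krt6a and Krt6b are type II keratins encoded by neighbouring, near-identical genes, and Krt16 and Krt17 are the type I keratins that they pair with. In resting skin these genes are transcribed mainly in the HF, nail and other appendages, the companion layer of the HF among them, while the epidermis between HFs uses Krt5 with Krt14 in its basal layer and Krt1 with Krt10 above it. After a wound, keratinocytes at its edge switch on Krt6, Krt16 and Krt17, which have long served as markers of activated epidermis.

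On GRCm38, Krt6a lies at chr15:101689910-101694307 and Krt6b at chr15:101676023-101680287, both on the minus strand and 9622 bp apart. Krt16 lies at chr11:100246091-100248902 and Krt17 at chr11:100256217-100261029, both on the minus strand and 7314 bp apart. Copies in the genome limit how surely reads can be given to these genes. Of all stretches of 50 bases in its transcript, 49.5% in Krt6a and 50.1% in Krt6b also occur in a transcript of another gene, with 972 stretches common to Krt6a and Krt6b. For Krt16 the share is 37.6%, with the predicted gene Gm11597 as the main partner, and for Krt17 it is 3.99%. The study lists its counting options, and none of them names reads that fit several places. How such reads were treated is thus not stated, and values for Krt6a, Krt6b and Krt16 carry this uncertainty. The sum of Krt6a and Krt6b is given where it changes a call. Gm11597 itself had 0 to 78 counts per Lrig1 library and 7 to 580 per Lgr5 library. Krt6a also overlaps the predicted genes Gm44342 and Gm49428, and Krt6b overlaps Gm44383.

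Libraries held 765252 to 3365666 counts in the Lrig1 table and 1297798 to 6960537 in the Lgr5 table. Levels are CPM, counts brought to a common library size, with TMM scaling, a method that evens out differences in composition between libraries, and 3 counts were worth at most 3.39 CPM in any library. The 6 general keratinocyte markers, Krt5 and Krt14 among them, summed to between 8392.6 and 33688 CPM in every library. Markers of other cells were low. In Lrig1 GL cells 2 of 9 immune markers were in the table and summed to at most 16.4 CPM, with the defining markers Cd3e, Lyz2 and Itgam not listed in either table, and 5 of 6 fibroblast markers summed to at most 89.6 CPM. In Lgr5 GL cells 3 of 9 immune markers summed to at most 35.0 CPM and the 6 fibroblast markers to between 54.9 and 377.7 CPM. The summed markers of bulge and hair germ, Krt15 and Lgr5 among them, were 8096 ± 2047 CPM at 0W, 1703 ± 523 at 1W and 1619 ± 612 at 9W in Lrig1 GL cells (mean ± SD, n = 3 here and below), and 19377 ± 3341, 8737 ± 3326 and 14293 ± 2556 in Lgr5 GL cells. These sums moved with time, and in bulk libraries fewer cells of a type and less RNA per cell cannot be told apart. The part of these shifts in the values of the wound-induced keratins was not tested.

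In Lrig1 GL cells, 3 of the 4 genes were high a week after each wound and low before injury and after healing. Krt6b, the copy with the lower level at rest, gave 64.7, 82.8 and 35.2 CPM in the 3 libraries at 0W, 1675, 328 and 1072 at 1W, 417, 283 and 130.4 at 2W, 40.8, 145 and 104 at 4W, 10.9, 9.16 and 28.9 at 8W and 483, 935 and 377 at 9W. All 6 libraries taken a week after a wound were above all 6 from 0W and 8W, and the 8W libraries were all below those of 0W. The 8W values rest on 15 to 54 counts per library.

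Krt6a, the more abundant type II partner, gave 539.9, 657 and 621 CPM at 0W, 3203, 1679.8 and 3137 at 1W, 1983, 1563 and 783 at 2W, 931, 531 and 597 at 4W, 178, 249.8 and 697 at 8W and 1570.1, 2293 and 1121 at 9W. Again all 1W and 9W libraries lay above all of 0W and 8W, and the 2W libraries, all above those of 0W, overlapped with both. The 8W libraries were spread, with replicate c above all 3 of 0W and replicates a and b below them.

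Krt16, the type I keratin most tied to activated epidermis, gave 79.6, 50.8 and 236 CPM at 0W, 2107, 482 and 1795 at 1W, 759, 399.9 and 146 at 2W, 251, 159 and 79.5 at 4W, 37.9, 42.1 and 89.0 at 8W and 453, 773 and 390.0 at 9W. Replicate 2 was the lowest of the 1W libraries for Krt6a, Krt6b, Krt16 and Krt17 alike. The 1W and 9W libraries were again all above those of 0W and 8W.

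Krt17, the more abundant of this pair of type I keratins at rest, went its own way. It gave 2028, 4179 and 2308 CPM at 0W, 3826, 2010.1 and 4650.1 at 1W, 3037, 2398 and 906 at 2W, 5619.8, 3108 and 1242 at 4W, 917, 1227 and 837 at 8W and 1769, 1529 and 1423 at 9W. The 0W, 1W, 2W and 4W libraries overlapped throughout, and the 8W and 9W libraries were all below the lowest of 0W.

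**Figure D1:**
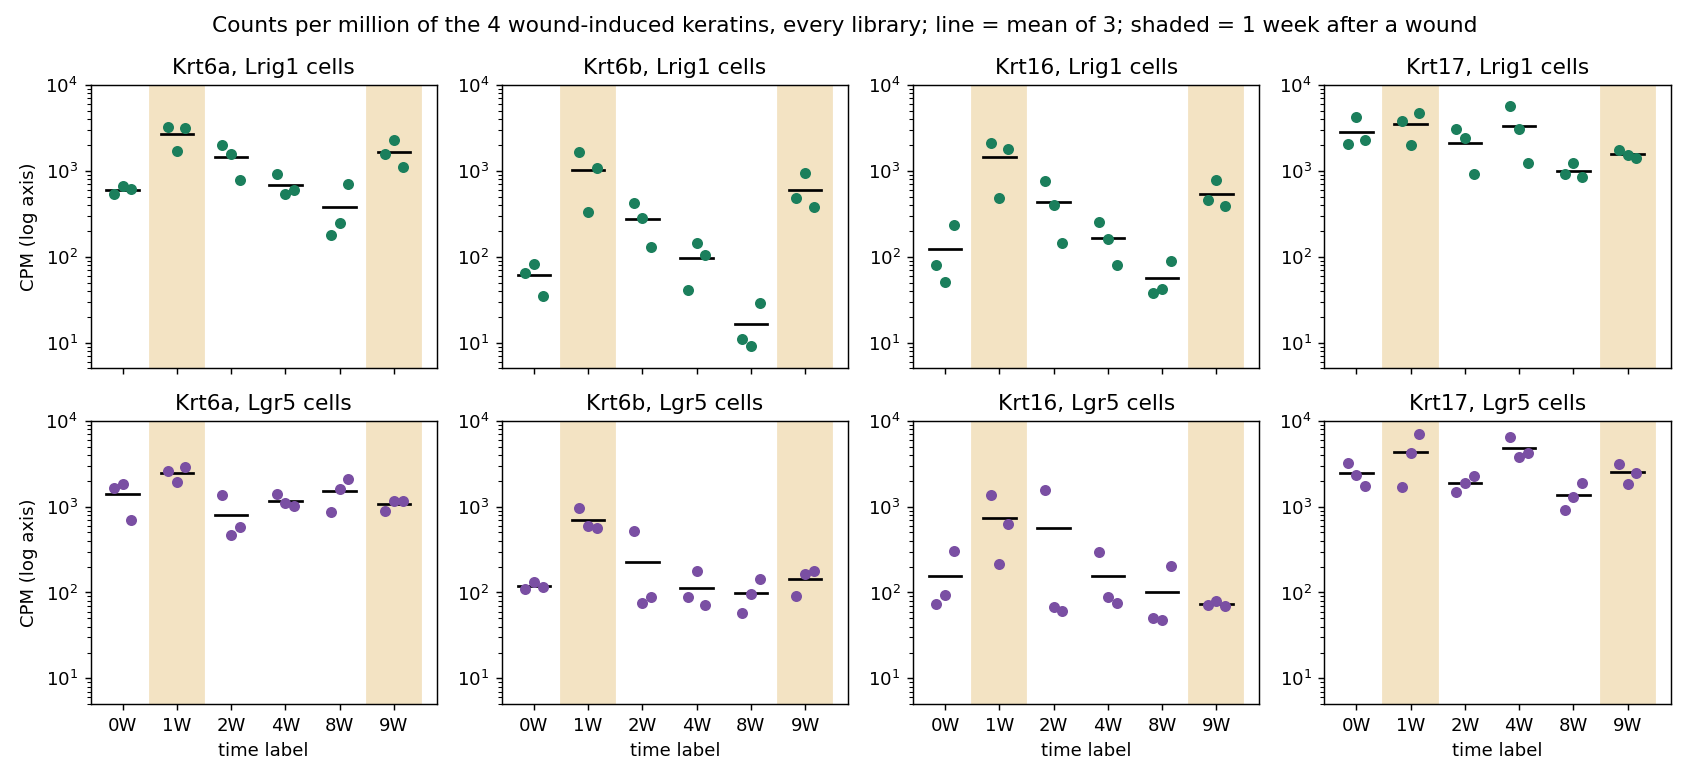
Level of each wound-induced keratin in every library. The horizontal axis gives the time label and the vertical axis CPM on a log scale, points are the 3 libraries of a group, lines their mean, and shading marks the 2 groups taken 1 week after a wound. In Lrig1 GL cells (upper row) the Krt6a, Krt6b and Krt16 points of both shaded groups lie above all points of 0W and 8W, and Krt17 shows no such pattern. For Lgr5 GL cells (lower row) the 1W points of Krt6b are up and those of 9W are not.

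Set against the group means, the order of the levels in Lrig1 GL cells was 1W, 9W, 2W, 4W, 0W and 8W for Krt6a, Krt6b and Krt16 alike. Most neighbours in this order overlapped between libraries. The single exception among these 3 genes was Krt6b between 0W and 8W, whose lowest 0W library had 35.2 CPM and highest 8W library 28.9 CPM. For Krt17 the order was 1W, 4W, 0W, 2W, 9W and 8W, and only 9W and 8W did not overlap. Per kilobase of exon, a scale that allows for gene length but not for shared sequence, Krt17 had the highest level of the 4 at 0W. It stood at 1830.1 ± 754 CPM per kb, against 251 ± 24.9 for Krt6a, 78.1 ± 63.8 for Krt16 and 27.3 ± 10.8 for Krt6b. Shared stretches made up 3.99% of Krt17 but 49.5% of Krt6a, 37.6% of Krt16 and 50.1% of Krt6b, so this order need not be that of transcript numbers. At 1W Krt6a stood at 1106 ± 356, Krt16 at 934 ± 551, Krt6b at 459 ± 302 and Krt17 at 2254 ± 871 CPM per kb.

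The first question was which of the genes changed across the time course and against 0W, with edgeR's quasi-likelihood test and Benjamini-Hochberg adjustment over all 14306 genes tested. A gene was called with an adjusted p below 0.05 and, against 0W, a log2 difference above 1 in size, for the time course at any of its times. All comparisons with 0W share its 3 libraries. In Lrig1 GL cells Krt6b (adjusted p = 0.00960), Krt16 (adjusted p = 0.0179) and Krt6a (adjusted p = 0.0223) changed across the time course, and Krt17 did not pass (adjusted p = 0.145). The background was 1.63% of genes called, or 233 genes. DESeq2, another count test, called all 4 here among 1881 genes, as did the likelihood ratio test among 1999, while with 2 surrogate variables, which stand for variation that the groups do not explain, 2 of the 4 were called among 9 genes. The call of Krt6a was lost without 1W replicate 1 (adjusted p = 0.0555), 1W replicate 3 (adjusted p = 0.0522) or 8W replicate b (adjusted p = 0.0622).

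A week after the first wound, Krt6b was the only one of the 4 genes called in Lrig1 GL cells, with a mean of 1025 ± 675 CPM at 1W against 60.9 ± 24.03 at 0W (log2 difference 4.07 ± 0.68, adjusted p = 0.0157). Over all genes, 0.217% were called in this comparison. Krt16, at 1461 ± 862 against 122 ± 99.9 CPM, lay just outside the threshold (log2 difference 3.58 ± 0.72, adjusted p = 0.0504), and Krt6a did not pass either, at 2673 ± 861 against 606 ± 60.1 CPM (log2 difference 2.14 ± 0.47, adjusted p = 0.0784). Krt17, at 3496 ± 1351 against 2838 ± 1169.6 CPM, had a log2 difference of 0.30 ± 0.48 (adjusted p = 0.878). The Krt6b call was lost without 0W replicate 1 (adjusted p = 0.0822), 0W replicate 2 (adjusted p = 0.0601) or 1W replicate 1 (adjusted p = 0.0704), while Krt16 passed when 0W replicate 3 (log2 difference 4.49, adjusted p = 0.0303), 1W replicate 2 (log2 difference 4.00, adjusted p = 0.0320), 2W replicate a (adjusted p = 0.0431) or c (adjusted p = 0.0309), or 4W replicate a (adjusted p = 0.0470) or c (adjusted p = 0.0462) was left out, and Krt6a without 8W replicate c (adjusted p = 0.0267). With reads of Krt6a and Krt6b summed the log2 difference was 2.47 ± 0.49 (adjusted p = 0.0404).

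At 2W and 4W no wound-induced keratin was called in Lrig1 GL cells. At 2W the log2 differences from 0W were 1.25 ± 0.46 for Krt6a (adjusted p = 0.373), 2.18 ± 0.63 for Krt6b (adjusted p = 0.251) and 1.84 ± 0.68 for Krt16 (adjusted p = 0.375). Here edgeR called 0% of all genes, with 1499 genes at an unadjusted p under 0.05, and DESeq2 called 246 genes, Krt6b among them. At 4W, with 0.0419% of genes called, none of the 4 passed.

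After healing, at 8W, 2.82% of genes were called and again none of these 4. The lowest adjusted p belonged to Krt17, with 994 ± 206 CPM at 8W (log2 difference -1.51 ± 0.49, adjusted p = 0.0831), and to Krt6b, with 16.3 ± 10.9 CPM (log2 difference -1.90 ± 0.65, adjusted p = 0.0988). With 2 surrogate variables in the model the difference of Krt17 was -0.11 and that of Krt6b -1.20, and DESeq2 called both genes among 1571, where edgeR called 404. Mitochondrial genes took 12.8% ± 1.77 of the counts at 8W and 4.58% ± 1.24 at 0W, and the part of this shift in the 8W values was not tested.

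A week after the second wound, Krt6b was called against 0W, at 598 ± 296 CPM (log2 difference 3.29 ± 0.66, adjusted p = 0.0260), among 1.23% of genes. Krt6a, at 1661 ± 592 CPM (log2 difference 1.46 ± 0.46, adjusted p = 0.111), and Krt16, at 539 ± 206 CPM (log2 difference 2.15 ± 0.68, adjusted p = 0.113), did not pass. The Krt6b call was lost without 0W replicate 1, 2 or 3 (adjusted p = 0.0815, 0.0515 and 0.0658), 9W replicate 2 (adjusted p = 0.133) or 9W replicate 3 (adjusted p = 0.0576), and with 2 surrogate variables (adjusted p = 0.177). The fit with 2 surrogate variables called 0 of all genes here, where the main fit called 176. Under the alternative tests and models the Krt6b difference was 3.28 to 3.80. Summed with Krt6a, Krt6b had a difference of 1.76 ± 0.47 (adjusted p = 0.0741).

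Against the healed skin at 8W, the state in which the second wound was made, Krt6b was the only gene called of 14306, or 0.00699%, with a log2 difference of 5.19 ± 0.73 (adjusted p = 0.0216). In this comparison 818 genes had an unadjusted p under 0.05, and DESeq2 called 45 genes, with Krt6a, Krt6b and Krt16 among them. By p-value Krt6a ranked 9 (log2 difference 2.15 ± 0.47, adjusted p = 0.354) and Krt16 ranked 10 (log2 difference 3.26 ± 0.72, adjusted p = 0.354), and Krt17 had a log2 difference of 0.66 ± 0.48 (adjusted p = 0.942). The Krt6b call depended on single libraries, since it was lost without 8W replicate a (adjusted p = 0.418), b (adjusted p = 0.413) or c (adjusted p = 0.0525) or 9W replicate 2 (adjusted p = 0.0925), with log2 differences of 4.71 to 5.88. It was also lost with 2 surrogate variables (adjusted p = 0.0936) and when summed with Krt6a (log2 difference 2.53 ± 0.49, adjusted p = 0.381).

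Whether the second wound gave another level than the first was asked directly by 9W against 1W. All 4 means were lower at 9W, and no gene passed, with log2 differences of -0.69 ± 0.45 for Krt6a (adjusted p = 0.684), -0.78 ± 0.60 for Krt6b (adjusted p = 0.754), -1.44 ± 0.67 for Krt16 (adjusted p = 0.548) and -1.15 ± 0.48 for Krt17 (adjusted p = 0.503). Over all genes edgeR called 0%, with 1269 at an unadjusted p under 0.05, and DESeq2 called 156 genes and none of these 4. With 2 surrogate variables the differences of these 4 genes shrank to between -0.12 and -0.34.

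**Figure D2:**
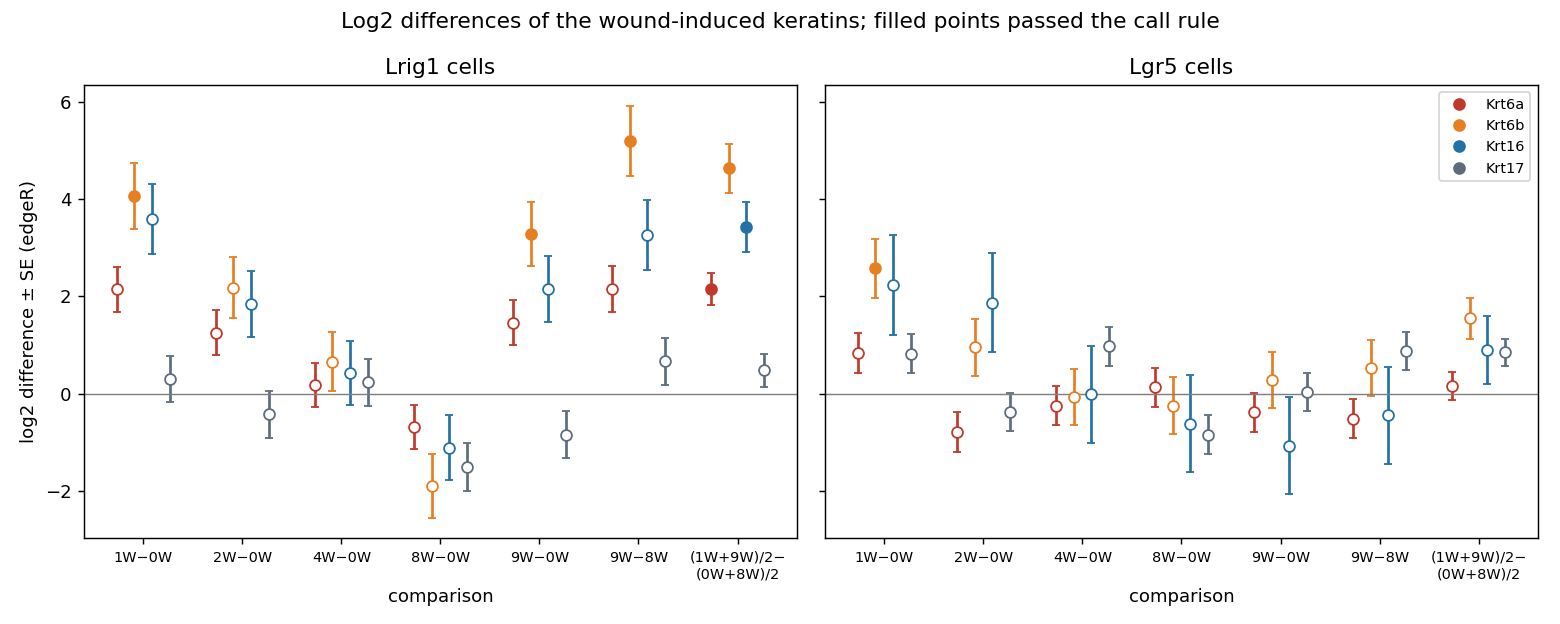
Log2 differences of the 4 genes in each comparison, with Lrig1 GL cells on the left and Lgr5 GL cells on the right. The vertical axis gives the edgeR log2 difference, bars are 1 standard error and filled points passed the call rule. In Lrig1 GL cells Krt6b passed in 1W against 0W, 9W against 0W, 9W against 8W and the comparison of both wounds with 0W and 8W, Krt6a and Krt16 only in the last of these, and in Lgr5 GL cells Krt6b passed at 1W only.

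Taking both wounds together gave the clearest contrast. The mean of 1W and 9W was set against the mean of 0W and 8W, 6 libraries against 6, and 0.503% of genes were called in Lrig1 GL cells. Krt6b rose by a log2 difference of 4.63 ± 0.50 (adjusted p = 0.000365) and ranked 1 of 14306 genes by p-value. Krt16 rose by 3.42 ± 0.51 (adjusted p = 0.00559, rank 8) and Krt6a by 2.14 ± 0.33 (adjusted p = 0.00635, rank 12). Krt17 did not pass (log2 difference 0.48 ± 0.34, adjusted p = 0.709). These 3 calls held whichever of the 18 libraries was left out, with adjusted p-values of at most 0.0264 for Krt6a, 0.00461 for Krt6b and 0.0254 for Krt16, and the sum of Krt6a and Krt6b passed as well (log2 difference 2.50 ± 0.34, adjusted p = 0.00300). The comparison uses the same libraries as those above and is no separate evidence.

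Among the 31 keratin genes tested in Lrig1 GL cells, Krt6b, Krt16 and Krt6a had the 3 largest increases in this comparison, and Krt17 was the 8th in that order. The only other keratin called was Krt15, a keratin of the HF bulge, which fell (log2 difference -2.20 ± 0.42, adjusted p = 0.0237), from 5774 ± 1655 CPM at 0W to 597 ± 525 at 1W and from 1859.7 ± 433 at 8W to 854 ± 437 at 9W. Krt18, a keratin of simple epithelia, came next to the wound-induced keratins and did not pass. Of the counts of all keratins, Krt6a, Krt6b, Krt16 and Krt17 held 9.87% ± 3.88 at 0W, 20.99% ± 7.78 at 1W, 5.28% ± 0.563 at 8W and 13.7% ± 3.42 at 9W.

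**Figure D3:**
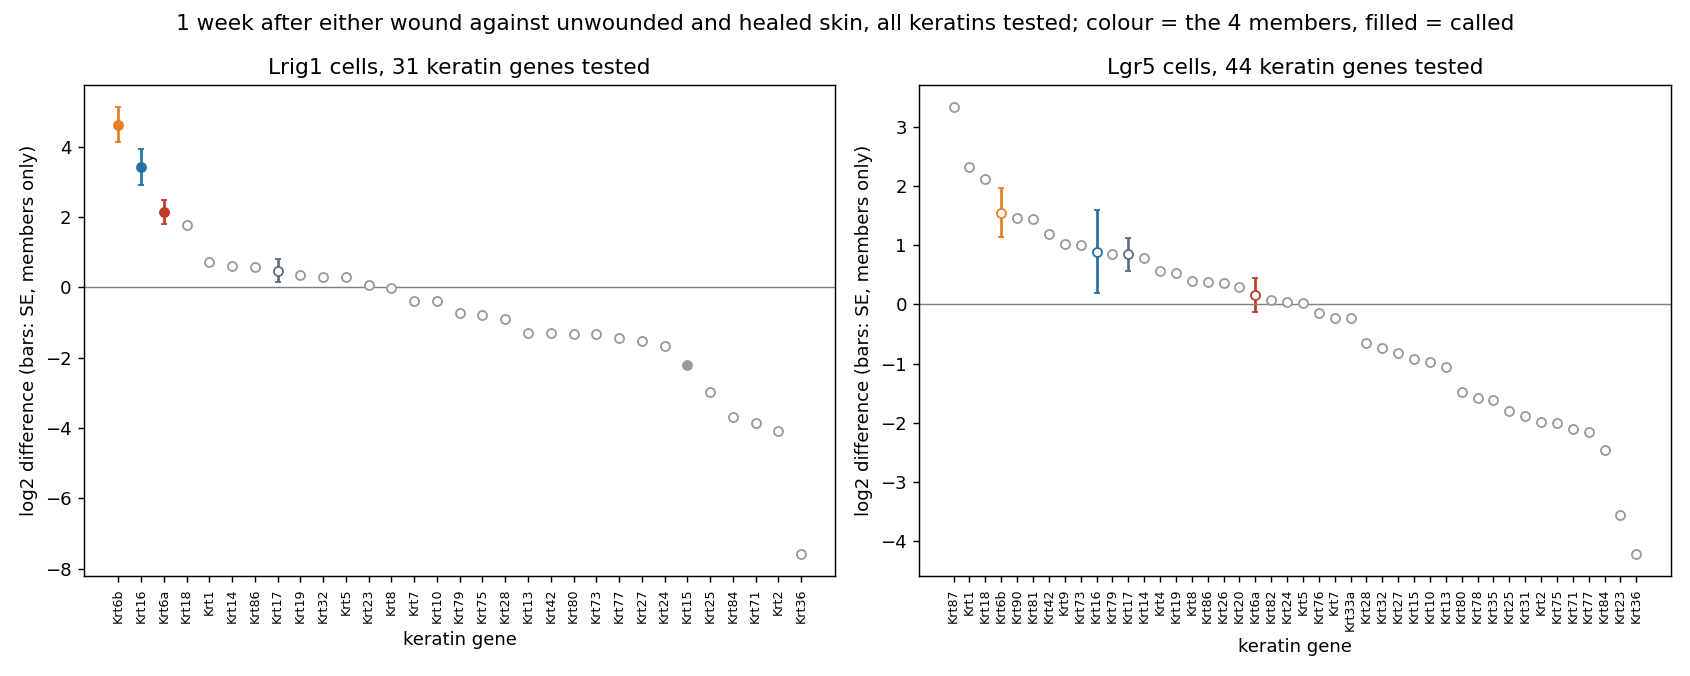
Log2 difference of every keratin gene tested between skin 1 week after a wound (1W and 9W) and skin before injury or after healing (0W and 8W), ordered from the highest to the lowest, with Lrig1 GL cells on the left and Lgr5 GL cells on the right. Coloured points are Krt6a, Krt6b, Krt16 and Krt17 with 1 standard error, and filled points were called. Krt6b, Krt16 and Krt6a stand at the far left among 31 keratins in Lrig1 GL cells. For Lgr5 GL cells Krt6b is at position 4, Krt16 at 10, Krt17 at 12 and Krt6a at 20 of 44.

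Lgr5 GL cells had Krt6b as their only call among the 4 genes, at 1W and across the time course. Krt6b gave 109, 132 and 115 CPM at 0W, 965, 593 and 563 at 1W, 524, 74.7 and 87.7 at 2W, 89.5, 179 and 70.6 at 4W, 57.9, 96.5 and 145 at 8W and 90.4, 162 and 179 at 9W. The 1W libraries were above all others of this population, and those of 9W overlapped with 8W.

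Krt6a gave 1627, 1852 and 701 CPM at 0W, 2583, 1939 and 2922 at 1W, 1372, 473 and 571 at 2W, 1404, 1097 and 1011 at 4W, 871, 1587 and 2110.2 at 8W and 887, 1152 and 1155 at 9W. Its 1W libraries were all above those of 0W, and the 9W libraries lay within the range of 8W and 0W. Krt16 gave 72.8, 92.8 and 302 CPM at 0W, 1348, 217 and 630.0 at 1W, 1574, 67.9 and 61.1 at 2W, 299.5, 89.3 and 75.3 at 4W, 50.8, 47.3 and 204 at 8W and 72.1, 80.6 and 69.3 at 9W. The 1W and 2W groups were widely spread, and 2W replicate a had the highest Krt16 level of all Lgr5 libraries together with the highest Krt6a and Krt6b of its group.

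Krt17 gave 3247, 2353 and 1730.1 CPM at 0W, 1708, 4233 and 6960.2 at 1W, 1463, 1869 and 2293 at 2W, 6387, 3767 and 4245 at 4W, 920.5, 1299 and 1864 at 8W and 3149, 1849 and 2491 at 9W. Its 4W libraries were all above those of 0W, at a time when the 8 markers of companion layer and inner root sheath summed to 2211 ± 1958 CPM, against 374 ± 231 at 0W, and the part of those layers in the Krt17 level was not tested. In the order of group means the 4W group led for Krt17 and the 1W group for the other 3 genes, and all neighbours overlapped except 1W and 2W of Krt6b. Per kilobase, the levels at 0W were 1575 ± 492 CPM per kb for Krt17, 576 ± 252 for Krt6a, 99.6 ± 81.2 for Krt16 and 53.2 ± 5.28 for Krt6b. A single predicted gene, Gm12415, took 12.04% to 52.07% of the counts of Lgr5 libraries, and without it all levels of this population would be 1.42 to 1.48 times as high.

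Across the time course Krt6b changed in Lgr5 GL cells (adjusted p = 0.0363), with 1.13% of genes called, while Krt6a (adjusted p = 0.176), Krt16 (adjusted p = 0.187) and Krt17 (adjusted p = 0.0809) did not pass. This call was lost in 11 of 18 fits that left out 1 library, with adjusted p of 0.0546 to 0.145. Summed, Krt6a and Krt6b did not pass (adjusted p = 0.159). Without 2W replicate a, Krt16 passed (adjusted p = 0.0477), and without 1W replicate 1, Krt17 did (adjusted p = 0.0196). At 1W, with 1.29% of genes called, Krt6b stood at 707 ± 224 CPM against 119 ± 11.8 at 0W (log2 difference 2.57 ± 0.61, adjusted p = 0.0454), and this call was lost in 13 of 18 such fits (log2 differences 2.28 to 2.67, adjusted p of 0.0508 to 0.137). Krt16 (log2 difference 2.23 ± 1.03, adjusted p = 0.252), Krt6a (log2 difference 0.83 ± 0.40, adjusted p = 0.275) and Krt17 (log2 difference 0.82 ± 0.40, adjusted p = 0.281) were not called, and the sum of Krt6a and Krt6b was not either (log2 difference 1.08 ± 0.42, adjusted p = 0.182).

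At later times no wound-induced keratin was called against 0W in Lgr5 GL cells. The share of all genes called was 0% at 2W, 0.155% at 4W, 0% at 8W and 0% at 9W. Where edgeR called none, 1584, 1070 and 1157 genes had an unadjusted p under 0.05 at 2W, 8W and 9W, and DESeq2 called 177, 66 and 57 genes, none of them a wound-induced keratin. At 9W Krt6b was at 144 ± 47.1 CPM (log2 difference from 0W 0.27 ± 0.58, adjusted p = 1.00). Against 8W its log2 difference was 0.52 ± 0.58 (adjusted p = 1.00), in a comparison with 0% of genes called by edgeR, 691 at an unadjusted p under 0.05 and 16 called by DESeq2. The sum of Krt6a and Krt6b, most of which is Krt6a, had differences of -0.32 and -0.43 in these comparisons.

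Between the wounds, at 9W against 1W, 0.266% of genes were called in Lgr5 GL cells. Krt6b (log2 difference -2.30 ± 0.60, adjusted p = 0.0902), Krt16 (log2 difference -3.31 ± 1.08, adjusted p = 0.156) and Krt6a (log2 difference -1.22 ± 0.41, adjusted p = 0.164) were lower at 9W by values that did not pass. Without 2W replicate a, Krt6b passed (log2 difference -2.29, adjusted p = 0.0224), and DESeq2 called Krt6b and Krt16 among 959 genes, where edgeR called 48. For both wounds against 0W and 8W, with 0.194% of genes called, Krt6b had a log2 difference of 1.55 ± 0.42 (adjusted p = 0.110) and Krt16 of 0.89 ± 0.70 (adjusted p = 0.641). Without 2W replicate a, Krt6b passed here too (log2 difference 1.54, adjusted p = 0.0313).

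The populations were set side by side in a joint fit of the 12 groups, over 13980 genes that passed the filter in both. The tables were made apart, so that a difference in level between the populations and one between the tables cannot be told apart. As a mean over the 6 times, Krt6a was lower in Lrig1 GL cells than in Lgr5 GL cells, at 1324 against 1941 CPM (log2 difference -0.76 ± 0.18, adjusted p = 0.00161), and Krt17 was too, at 2558 against 3996 CPM (log2 difference -0.62 ± 0.19, adjusted p = 0.0112). Since 32.7% of all genes were called, 2 of these 4 is near the background. Neither passed once the trend of counts on GC content was removed (-0.41, adjusted p = 0.0837, and -0.10, adjusted p = 0.720). Krt6b did not pass (log2 difference -0.52 ± 0.26, adjusted p = 0.120), while the sum of Krt6a and Krt6b did (log2 difference -0.71 ± 0.19, adjusted p = 0.00396). At 0W, Krt6a stood at 646 ± 59.8 CPM in the Lrig1 libraries and 1895 ± 792 in those of Lgr5 (log2 difference -1.55 ± 0.45, adjusted p = 0.0525), with 3.12% of genes called, and it passed in 7 of 36 fits that left out 1 library (adjusted p of 0.0286 to 0.04998) and with DESeq2, which called 941 genes.

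Whether the wound changed these genes more in one population was tested as the difference between the changes. For 1W against 0W the change in Lrig1 GL cells exceeded that in Lgr5 GL cells by 1.25 ± 0.62 for Krt6a (adjusted p = 0.338), 1.44 ± 0.88 for Krt6b (adjusted p = 0.444) and 1.32 ± 1.28 for Krt16 (adjusted p = 0.653) on the log2 scale, none of which passed, with 0.0572% of genes called. For 9W against 0W the excess was 1.84 ± 0.63 for Krt6a (adjusted p = 0.196), 3.03 ± 0.90 for Krt6b (adjusted p = 0.130) and 3.25 ± 1.31 for Krt16 (adjusted p = 0.278), with 0.193% of genes called, and DESeq2 called Krt6b among 316 genes. For 8W against 0W none of the 4 passed and 1.51% of genes did.

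A further comparison, the difference between populations of the change from 8W to 9W, was added after the values had been seen. The excess in Lrig1 GL cells was 4.64 ± 0.93 for Krt6b (adjusted p = 0.144), 2.63 ± 0.63 for Krt6a (adjusted p = 0.779) and 3.67 ± 1.32 for Krt16 (adjusted p = 0.938). By p-value Krt6b ranked 2 and Krt6a 4 of 13980 genes. No gene was called (0%) by edgeR, 634 had an unadjusted p under 0.05, and DESeq2 called 9 genes, Krt6b among them. Without replicate a of Lgr5 2W, Krt6b passed in edgeR as well (log2 difference 4.64, adjusted p = 0.0209).

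Ratios within a library do not depend on its scaling, and they show how the composition of the keratin pairs moved. They are descriptions, with no test. Per kilobase, Krt6b made up 9.75 ± 3.44% (mean ± SD) of Krt6a and Krt6b in Lrig1 GL cells at 0W, 26.9 ± 9.35% at 1W, 4.78 ± 1.27% at 8W and 27.4 ± 2.89% at 9W. The 6 libraries taken a week after a wound ranged from 17.4% to 36.1% and those of 0W and 8W from 3.82% to 11.997%, without overlap. The share in Lgr5 GL cells was 9.68 ± 4.72% at 0W, 23.6 ± 5.87% at 1W, 6.60 ± 0.380% at 8W and 12.51 ± 2.30% at 9W, and here the 9W libraries, at 9.93% to 14.3%, overlapped with 0W.

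The type I partners moved in the same way in Lrig1 GL cells. Krt16 made up 4.71 ± 4.10% of Krt16 and Krt17 at 0W, 27.4 ± 8.06% at 1W, 15.9 ± 3.41% at 2W, 5.59 ± 3.44% at 8W and 25.0 ± 7.29% at 9W. The Lgr5 libraries had a share of 19.0 ± 21.6% at 1W, spread from 4.84% to 43.9%, and 3.01 ± 1.00% at 9W. The sum of the type II genes over that of the type I genes was also averaged by group in Lrig1 GL cells. It was 0.155 at 0W, 0.499 at 1W, 0.255 at 8W and 0.690 at 9W. Counts per kilobase of the type I genes, Krt17 above all, exceeded those of the type II genes in every group mean. Shared stretches made up 49.5% of Krt6a and 50.1% of Krt6b but 3.99% of Krt17, so these counts need not reflect transcript numbers. How far shared sequence shifts this ratio was not tested.

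**Figure D4:**
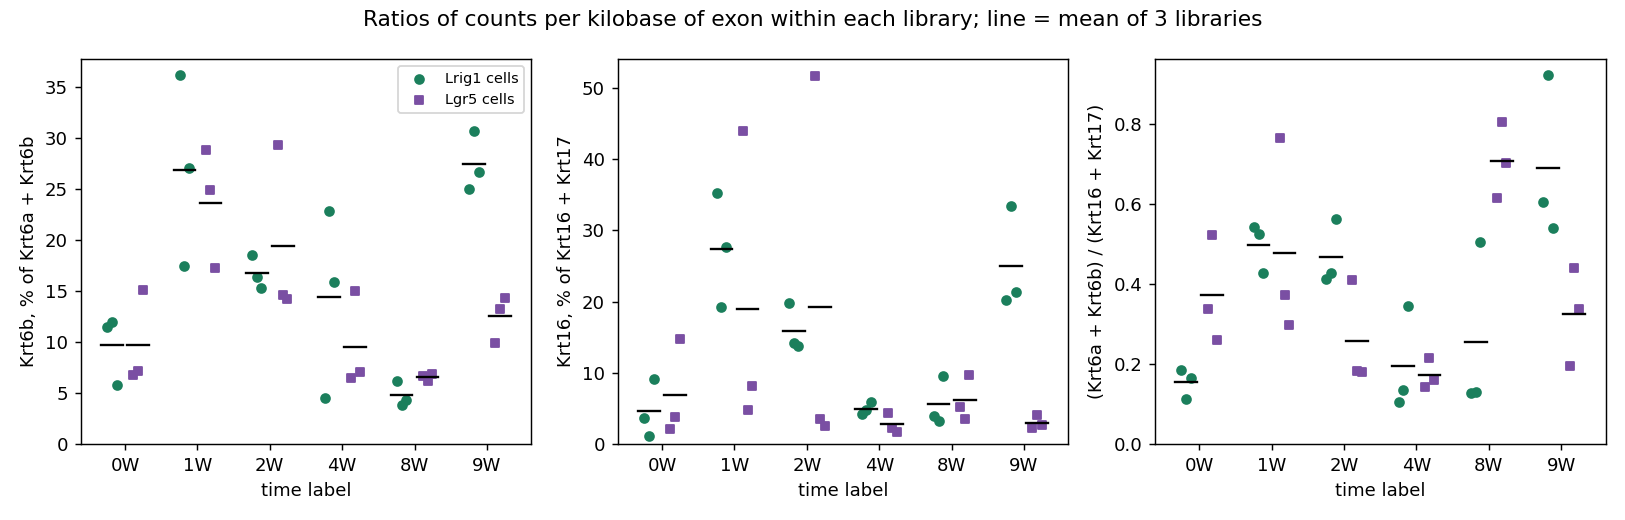
Ratios of counts per kilobase within each library by time label, for Krt6b as a percentage of Krt6a and Krt6b (left), Krt16 as a percentage of Krt16 and Krt17 (middle), and the sum of Krt6a and Krt6b over that of Krt16 and Krt17 (right). Points are libraries, with circles for Lrig1 GL and squares for Lgr5 GL cells, and lines are means of 3. The Krt6b share of all Lrig1 libraries at 1W and 9W lies between 17.4% and 36.1%, above those of 0W and 8W.

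Across the 18 Lrig1 libraries Krt6a, Krt6b and Krt16 varied together. Pearson's r of log2 CPM was 0.94 between Krt6a and Krt16 (Spearman's rho 0.94), 0.93 between Krt6a and Krt6b (rho 0.86) and 0.89 between Krt6b and Krt16 (rho 0.88). These points share the time groups, and Krt6a and Krt6b share sequence, so r is given as a description. Krt17 had r of 0.39 to 0.49 with the other 3. Predicted genes were left out of the nearest genes named here and in the next paragraph. In Lrig1 GL cells 5 were passed over for Krt6a, 5 for Krt6b and 4 for Krt16. The genes most like Krt6a beside its partners included Pkm, a glycolytic enzyme (r = 0.88), with 431 ± 104 CPM at 0W and 1051 ± 242 at 1W. The gene most like Krt6b after Krt6a and Krt16 was Cdhr1, a cadherin-related gene (r = 0.85), which had no count at 0W. Most like Krt16 after Krt6a were Sprr2h, a cornified-envelope precursor (r = 0.90), and Rbp2, a retinol-binding protein (r = 0.90). Most like Krt17 were Crabp2, which binds retinoic acid (r = 0.91), Lgals7, a galectin of stratified epithelia (r = 0.88), and Sdc1, a cell-surface proteoglycan (r = 0.87).

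In the 18 Lgr5 libraries the 4 genes were less alike. The r was 0.79 between Krt6b and Krt16, 0.67 between Krt6a and Krt6b and 0.52 between Krt6a and Krt16, and Krt17 had r of 0.13 to 0.29 with the others. The genes most like Krt6b were Krt14 (r = 0.89, rho 0.63), Urah (r = 0.85) and Slc2a1, a glucose transporter (r = 0.84). For Krt6a they were Eif6 (r = 0.89), Tagln2 (r = 0.85) and P3h4 (r = 0.83), for Krt16 Fabp5l2 (r = 0.85), Arhgdig (r = 0.84) and Higd1a (r = 0.83), and for Krt17 Matn2 (r = 0.81), Zfp941 (r = 0.79) and Ucp2 (r = 0.76). No gene but Krt6a, Krt6b and Krt16 in Lrig1 GL cells had another wound-induced keratin among its 3 nearest.

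**Figure D5:**
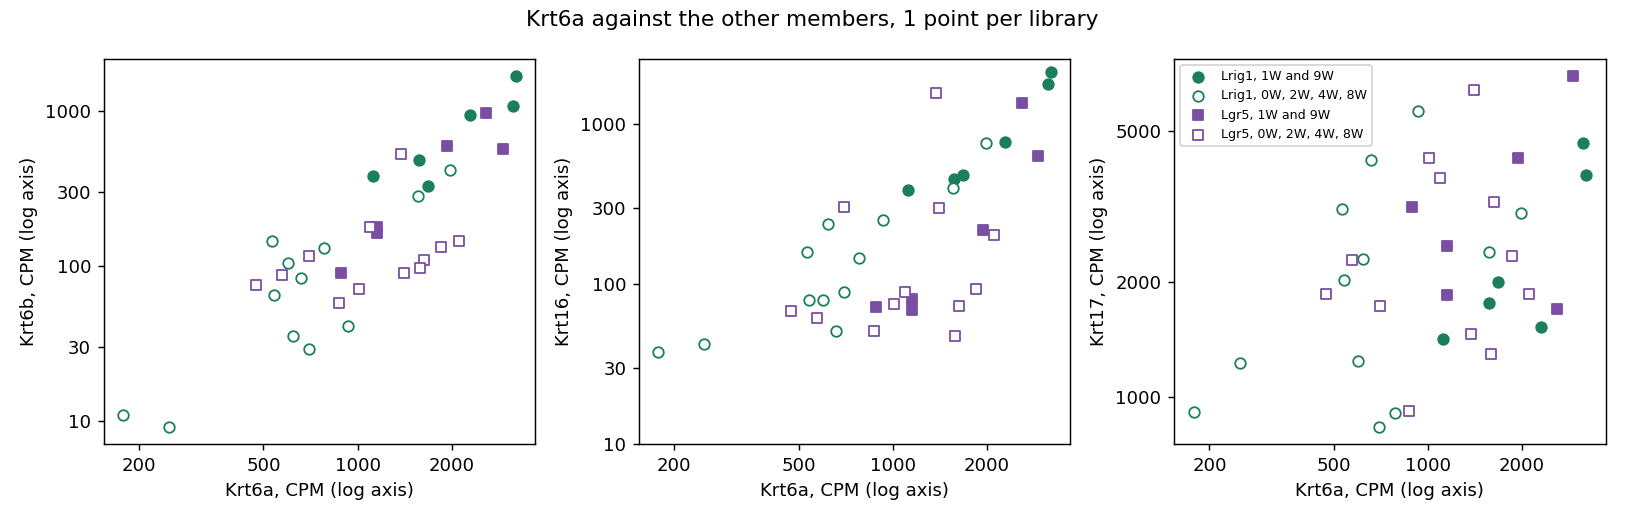
Level of Krt6a on the horizontal axis against Krt6b (left), Krt16 (middle) and Krt17 (right) in every library, in CPM on log axes. Circles are Lrig1 GL and squares Lgr5 GL libraries, and filled symbols are those of 1W and 9W. In Lrig1 GL cells Krt6b and Krt16 run with Krt6a (r = 0.93 and 0.94), and Krt17 is scattered (r = 0.48).

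The other keratins gave mostly lower values after the wound in Lrig1 GL cells. Of 51 listed, 27 were tested there, of which 7 had a positive difference at 1W, and at 1W none rose and 1 fell, Krt15 (log2 difference -3.28 ± 0.62, adjusted p = 0.0316). Of all genes 0.217% were called at 1W. The median log2 difference of the 27 was -1.71, beside -0.05 over all genes. The 27 include keratins that were high in a single 0W library. Krt71 had a median of 3.25 and a maximum of 250 CPM at 0W, and Krt25 of 4.47 and 110 CPM. Among more abundant keratins Krt14 (0.79), Krt1 (0.33) and Krt5 (0.21) had positive differences and Krt10 (-0.78) and Krt79 (-1.01) negative ones, none of them called. At 9W against 0W, with 1.23% of all genes called, none of the 27 rose and 2 fell, Krt80 (-2.17, adjusted p = 0.0229) and Krt15 (-2.76, adjusted p = 0.0360), with a median of -1.42, beside -0.06. Lgr5 GL cells had 40 tested, and 1.29% of all genes were called there at 1W. At 1W Krt14, of the basal layer, rose from 4978 ± 337 to 14406 ± 2202 CPM (log2 difference 1.53, adjusted p = 0.0197), while Krt36, a hair keratin (adjusted p = 0.0372), and Krt15 (-1.16, adjusted p = 0.0498) fell. Krt36 had 117 ± 105 CPM at 0W, with 1 library at 0, and 2 counts in all at 1W. At 9W Krt14 was at 3983 ± 253 CPM (9W against 1W -1.85, adjusted p = 0.0111).

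Genes that wound-edge keratinocytes are known to express, such as alarmins, Sprr genes and integrins, were taken as companions of the wound-induced keratins. Of 32 listed, 29 were tested in Lrig1 GL cells. At 1W 1 was called, S100a8, an alarmin (adjusted p = 0.0232), with 0.217% of all genes called. The median log2 difference was 0.87, beside -0.05 over all genes. S100a8 had 2 counts in all at 0W, with at most 0.812 CPM in a library, between 342 and 2120 CPM at 1W, between 0 and 297 CPM at 8W and between 804 and 888 CPM at 9W. At 8W against 0W S100a8 was called higher (adjusted p = 0.0356), with the 3 libraries of 8W widely spread, and S100a11, a calcium-binding protein of the same family, fell (log2 difference -1.49, adjusted p = 0.0238). At 9W against 0W S100a8 (adjusted p = 0.0167) and Itgb1, an integrin chain (log2 difference 1.69, adjusted p = 0.0398), rose. For both wounds against 0W and 8W, 3 of 29 rose, which were S100a8 (adjusted p = 0.00801), Sprr2h (adjusted p = 0.00801) and Gjb2, a gap-junction protein (log2 difference 3.33, adjusted p = 0.0493), and 27 of 29 had positive values. The share of all genes called was 2.82% at 8W, 1.23% at 9W against 0W and 0.503% for both wounds. Gjb2 had 23.8 ± 25.8 CPM at 0W, 291 ± 221 at 1W, 41.2 ± 20.5 at 8W and 338 ± 202 at 9W.

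Of the same list 31 were tested in Lgr5 GL cells. At 1W the median log2 difference of the 31 was 1.13, beside -0.08 over all genes, with 25 positive. The median for 9W against 0W was 0.03, beside -0.00 over all genes.

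Of 40 cytokines, receptors and transcription factors that are known to act on these keratins, 32 were tested in the Lrig1 table and 33 in the Lgr5 table. None was called at 1W in either. The background at 1W was 0.217% of all genes called for the Lrig1 table and 1.29% for the Lgr5 table. At such low shares a list of this length can lack a call at the background rate, so no conclusion is drawn from it. For Lrig1 GL cells the median log2 difference of the list was 0.19, beside -0.05 over all genes. For Lgr5 GL cells it was -0.06, beside -0.08. Junb, an AP-1 subunit, changed across the Lrig1 time course (adjusted p = 0.0485), with 316 ± 37.3 CPM at 0W, 864 ± 385 at 1W, 325 ± 38.4 at 8W and 444 ± 64.1 at 9W. Ets2, an ETS transcription factor, fell at 8W against 0W (log2 difference -1.45, adjusted p = 0.0431). In Lgr5 GL cells Jun, another AP-1 subunit, was higher at 9W than at 1W (891 ± 175 against 214 ± 78.5 CPM, log2 difference 2.06, adjusted p = 0.0149).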

How the data were processed

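Mini-bulk RNA-seq libraries of sorted tdTomato+ cells were made by the authors with a Smart-seq2 protocol. Per the submitters' processing notes and the study's methods, reads were trimmed with Trim Galore 0.5.0, aligned with HISAT2 to mm10 (GRCm38) and counted per gene with featureCounts on GENCODE annotation. The authors deposited raw read counts per gene, in 1 table for each population of 18 libraries. Of the 36 columns, 15 matched a labelled sample by name and 21 were known by group only.

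Counts were filtered with filterByExpr, scaled by TMM and tested with edgeR 4.0.16 (R 4.3.3, limma 3.58.1) by the quasi-likelihood test, each population apart, with Benjamini-Hochberg adjustment over all genes tested. A gene was called at an adjusted p below 0.05 and, against 0W and across the time course, with a log2 difference above 1 in size. Fitted differences used a prior count of 0.125. The scripts were tested on simulated data. The alternatives were DESeq2 1.42.0 and its size factors, a likelihood ratio test, no filter, 2 surrogate variables (sva 3.50.0), removal of the GC trend, a replicate block, 1 model of both populations, Krt6a and Krt6b summed, a library size without the most abundant gene and leaving out each library. With 3 libraries against 3 an exact permutation test cannot go below p = 0.1, so none was used.

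The 4 genes and the gene lists were chosen with earlier results of these data known. Named are these 4 genes, called genes of the lists (up to 4 with values per comparison, by adjusted p), and for each of the 4 genes in each population the 3 genes with the highest r of log2 CPM (prior count 2), without predicted genes. A called gene of the lists is not reported here. Shared sequence was found by matching stretches of 50 bases of the annotated transcripts on GRCm38. No sequences of these genes were used here.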

Additional observations from a re-analysis of the deposited data

Results flagged for a closer look

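Values of Krt6a at 2W lay on opposite sides of the 0W mean in the populations, though neither difference from 0W passed the test. The mean log2 ratio of the 3 libraries at 2W to the mean of 0W was 1.15 in Lrig1 GL cells, where all 3 libraries were above that mean, and -0.96 in Lgr5 GL cells, where all 3 were below it and the highest, at 1372 CPM, lay within the range of the 0W libraries. The difference between the populations at this time was not tested.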

How the results depend on the processing

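All 48 log2 differences given for Krt6a, Krt6b, Krt16 and Krt17 kept their direction under every alternative that counted each gene on its own, and 328 of 371 values stayed on the same side of the threshold. In Lgr5 GL cells the sum of Krt6a and Krt6b, most of which is Krt6a, had a difference of -0.32 at 9W against 0W and -0.43 at 9W against 8W, opposite in sign to that of Krt6b alone. The number of the 4 genes called moved more. DESeq2 and the likelihood ratio test each called 3 in Lrig1 GL cells at 1W, 9W and 9W against 8W. They called 2 at 8W, 1 at 2W and 4 over the time course. Of all genes DESeq2 called 346, 1026, 45, 1571, 246 and 1881 there, in that order. The likelihood ratio test called 287, 825, 25, 1408, 185 and 1999 and the quasi-likelihood test 31, 176, 1, 404, 0 and 233. For Lgr5 GL cells both alternatives called 2 over the time course, 2 at 9W against 1W and 1 for both wounds against 0W and 8W. Of all genes DESeq2 called 1683, 959 and 648, the likelihood ratio test 1975, 765 and 542, and the quasi-likelihood test 203, 48 and 35. Both alternatives also called 1 between the populations at 0W. They called 1 in each of the differences between populations of 9W against 0W and of 9W against 8W. Of all genes DESeq2 called 941, 316 and 9 there, the likelihood ratio test 841, 241 and 3, and the quasi-likelihood test 436, 27 and 0. DESeq2's size factors called 2 at 1W in Lrig1 GL cells, with 33 of all genes, and 1 between the populations at 0W, with 438 of all genes. With 2 surrogate variables 2 were called at 1W in Lrig1 GL cells, with 36 of all genes, and 2 over the time course, with 9 of all genes. At 9W and at 9W against 8W none of the 4 was called, and 0 of all genes were. In Lgr5 GL cells none of the 4 was called at 1W or over the time course, where 14 and 64 of all genes were. Removing the GC trend gave 2 at 1W in Lrig1 GL cells, 2 across the Lgr5 time course and 0 as a mean of times between the populations. Of all genes 47, 303 and 3501 were called there, in that order. A single model of both populations called 2 at 1W and 1 at 8W in Lrig1 GL cells, with 74 and 1150 of all genes. Without a filter 0 of the 4 were called at 1W in Lgr5 GL cells, where 184 of all genes were. The cause was not tested.

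Libraries of the same column number showed little shared variation over all genes tested, which does not exclude a shared animal or batch. Deviations of same-numbered libraries from their group means had a mean correlation of -0.00644 over 33 pairs in Lrig1 GL cells, with 1 pair over 0.1, and of 0.00393 over 32 pairs in Lgr5 GL cells, with 2 over 0.1. With the replicate block 1 wound-induced keratin was called across the Lrig1 time course. None was called across the Lgr5 time course or at 1W in Lgr5 GL cells. Of all genes 16, 46 and 135 were called in these comparisons, in that order.

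Leaving out 1 library at a time gave 0 to 2 calls among the wound-induced keratins at 1W in Lrig1 GL cells. In these cells it gave 0 to 1 at 9W, 0 to 1 at 9W against 8W and 2 to 3 across the time course. For both wounds against 0W and 8W it gave 3 each time. In Lgr5 GL cells the range was 0 to 1 at 1W, 0 to 1 at 9W against 1W, 0 to 1 for both wounds against 0W and 8W and 0 to 2 across the time course. Between the populations it was 0 to 1 at 0W and 0 to 1 for the change from 8W to 9W. Without the most abundant gene in the library size, levels were 1.00 to 1.06 times as high in Lrig1 GL cells and 1.42 to 1.48 times in Lgr5 GL cells. The 15 to 54 counts of Krt6b per Lrig1 library at 8W limit the precision of the differences that rest on them.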
